A study of Homo sapiens and Mus musculus with 6 samples.

Results

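The members are the promoters of Six2, Six3, Six4, Six5, Six6, Eya1, Eya2, Eya3 and Eya4, followed through the listed promoter Capture Hi-C interactions of mouse embryonic stem cells (mESCs). A call was kept when one of these symbols named the HindIII fragment at either end, whether as the bait or as the other end. The rule kept 132 of 101841 listed calls, which joined 115 distinct pairs of fragments and involved 7 of 17157 baited fragments. Of the 9 symbols, 7 were listed with a call and Eya1 and Eya2 were not, beside 63.5% of the protein-coding symbols of the annotation. In the human lymphoblastoid line GM12878 the same symbols, in capitals, named 58 of 92929 calls, 52 distinct pairs and 5 of 16616 baited fragments.

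Promoter Capture Hi-C (CHi-C) enriches a library of ligated fragments for those that carry promoters, so that each listed interaction has a promoter bait and another end. The mESCs were of the J1 line (129S4/SvJae), grown on feeder cells, and GM12878 is a B-lymphocyte line made by Epstein-Barr virus transformation. Both were fixed with formaldehyde and neither carried a treatment or an engineered allele. There were 2 biological replicates of mESC CHi-C, 3 of GM12878 CHi-C and 1 mESC Hi-C library without capture. The replicates of a cell type were called together by the authors, so that no spread between replicates can be computed, and intervals below cover counting error only. Cell type, species and depth differ together between the lists and cannot be told apart.

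The genes Six2 to Six6 encode homeodomain transcription factors, and Eya genes encode their coactivators, which are also protein phosphatases. With Pax and Dach proteins they form a network that directs the early eye, ear, kidney and skeletal muscle. Six3 and Six6 act in the forebrain and eye, Six2 keeps kidney progenitors undifferentiated, and Six4 acts in muscle and placodes. Promoters of this class are rich in CpG and lie under Polycomb marks in many undifferentiated cells, which were not measured here.

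The DNA behind the main contacts is shown first, from the mm9 reference and 5′ to 3′, with each CpG in capitals. Promoters are the 250 bases before the annotated start. The 4 printed are those of Six5 (most calls), Eya4 (distant calls), Eya1 (no call) and Six2, whose window held the most CpG. Where a gene had several annotated starts, the one shared by most transcripts was used. Over all 9 members the CpG count ran from 2 (Eya2) to 26 (Six2). The windows of Eya2, Eya3, Six3 and Six6 overlapped an annotated exon, and those of Eya2 and Six3 lay inside the annotated gene. The Eya1 promoter, which had no call, held 5 CpG, and those of Six5, Eya4 and Six2 held 13, 25 and 26, beside a median of 8 over 69924 starts of protein-coding transcripts.

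Six2 promoter, chr17:86087595-86087844, minus strand: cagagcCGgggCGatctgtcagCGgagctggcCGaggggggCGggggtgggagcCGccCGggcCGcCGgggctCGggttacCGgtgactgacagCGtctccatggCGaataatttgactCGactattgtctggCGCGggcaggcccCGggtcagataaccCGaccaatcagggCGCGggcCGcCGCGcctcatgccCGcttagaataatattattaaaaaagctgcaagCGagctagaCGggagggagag
Six5 promoter, chr7:19679643-19679892, plus strand: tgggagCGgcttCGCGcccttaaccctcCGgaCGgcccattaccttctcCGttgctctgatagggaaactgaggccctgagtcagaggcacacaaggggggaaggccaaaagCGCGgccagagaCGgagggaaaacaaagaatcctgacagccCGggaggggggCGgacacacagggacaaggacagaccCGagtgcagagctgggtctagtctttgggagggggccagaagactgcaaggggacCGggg
Eya4 promoter, chr10:23069702-23069951, minus strand: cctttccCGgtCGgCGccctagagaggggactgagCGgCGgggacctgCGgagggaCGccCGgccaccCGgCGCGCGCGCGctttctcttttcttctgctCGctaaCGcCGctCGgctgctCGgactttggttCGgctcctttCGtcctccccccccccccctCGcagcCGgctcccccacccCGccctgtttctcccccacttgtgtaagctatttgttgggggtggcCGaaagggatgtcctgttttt
Eya1 promoter, chr1:14300282-14300531, minus strand: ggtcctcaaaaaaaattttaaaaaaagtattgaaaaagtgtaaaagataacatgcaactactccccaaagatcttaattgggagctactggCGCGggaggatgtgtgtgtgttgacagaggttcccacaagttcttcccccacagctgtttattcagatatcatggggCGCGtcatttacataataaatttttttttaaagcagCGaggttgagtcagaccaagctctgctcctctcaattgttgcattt

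The next stretches are not promoters. Each is the 250 bases richest in CpG of the unbaited fragment that scored highest with Six3 or Eya4, and neither overlapped an annotated exon. The stretch contacted by Six3, which Six2 also contacted, held 30 CpG. That contacted by Eya4 held 14, most of them in a run of alternating dinucleotides.

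Fragment called with Six3 and Six2, chr17:85885917-85886166, plus strand: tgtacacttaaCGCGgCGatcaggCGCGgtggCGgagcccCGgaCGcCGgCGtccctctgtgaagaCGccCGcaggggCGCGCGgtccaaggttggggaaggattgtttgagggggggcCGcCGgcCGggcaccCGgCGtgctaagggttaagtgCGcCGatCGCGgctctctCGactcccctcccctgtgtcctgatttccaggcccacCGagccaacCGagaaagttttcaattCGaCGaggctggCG
Fragment called with Eya4, chr10:22533863-22534112, plus strand: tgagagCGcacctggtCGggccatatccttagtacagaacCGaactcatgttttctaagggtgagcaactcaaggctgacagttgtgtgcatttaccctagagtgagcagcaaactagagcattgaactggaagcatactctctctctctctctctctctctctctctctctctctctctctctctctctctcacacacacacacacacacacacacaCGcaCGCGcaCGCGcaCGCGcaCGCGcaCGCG

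In mESCs the members differed widely in how many fragments they were called with. The score is the CHiCAGO score, for which at least 5 was needed to be listed, and reads are the authors' weighted, rounded mean over replicates. Six5 had 41 distinct fragments, more than 98.5% of baited fragments. Six4 had 23, Six3 had 15, Eya4 had 13, Six2 had 10, Six6 had 8 and Eya3 had 7, beside a median of 4 over all baited fragments. Six5 and Six4 thus led, and all 7 listed members lay above that median. A pair of members counts for each of them, so that calls summed over members come to 136.

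**Figure D1:**
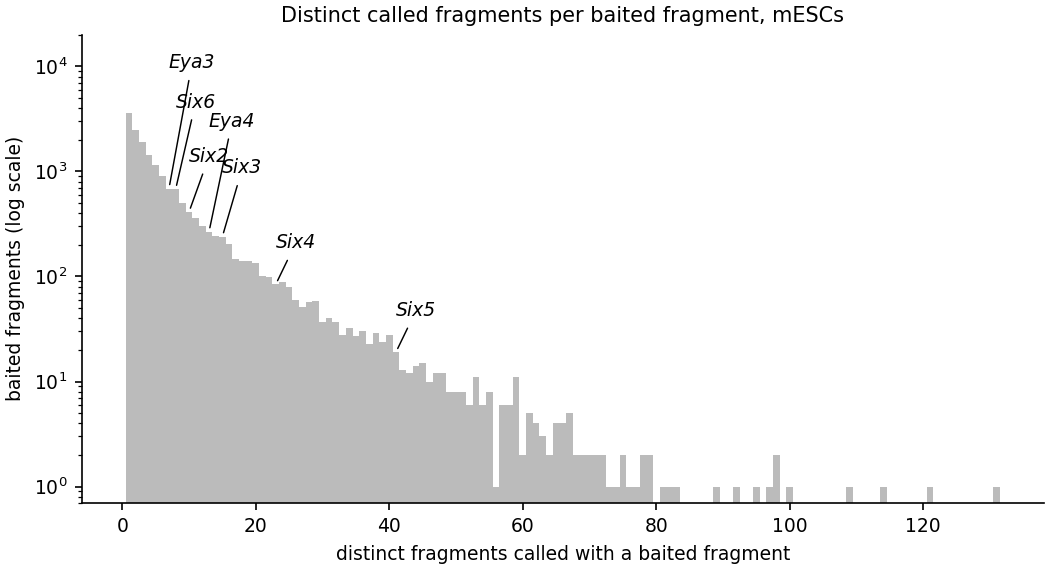
Number of distinct fragments called with each baited fragment in mESCs (horizontal axis) and number of baited fragments with that count (vertical axis, log scale), with the 7 listed members named at their counts. Members range from 7 (Eya3) to 41 (Six5), above the median of 4.

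Calls with a score of at least 20 made up 18 of 132 member calls, or 13.6%, against 2.84% of all mESC calls. A score of at least 10 was reached by 35 member calls, or 26.5%, against 16.9% of all calls. For 5 of the 7 listed members the best own score of the bait is given, without an order over all 7. It was 51.19 for Eya4, 36.88 for Six2, 35.8 for Six3, 9.17 for Six5 and 6.07 for Eya3. The median best score over all baits was 8.47, which of these 5 only Eya3 did not reach.

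**Figure D2:**
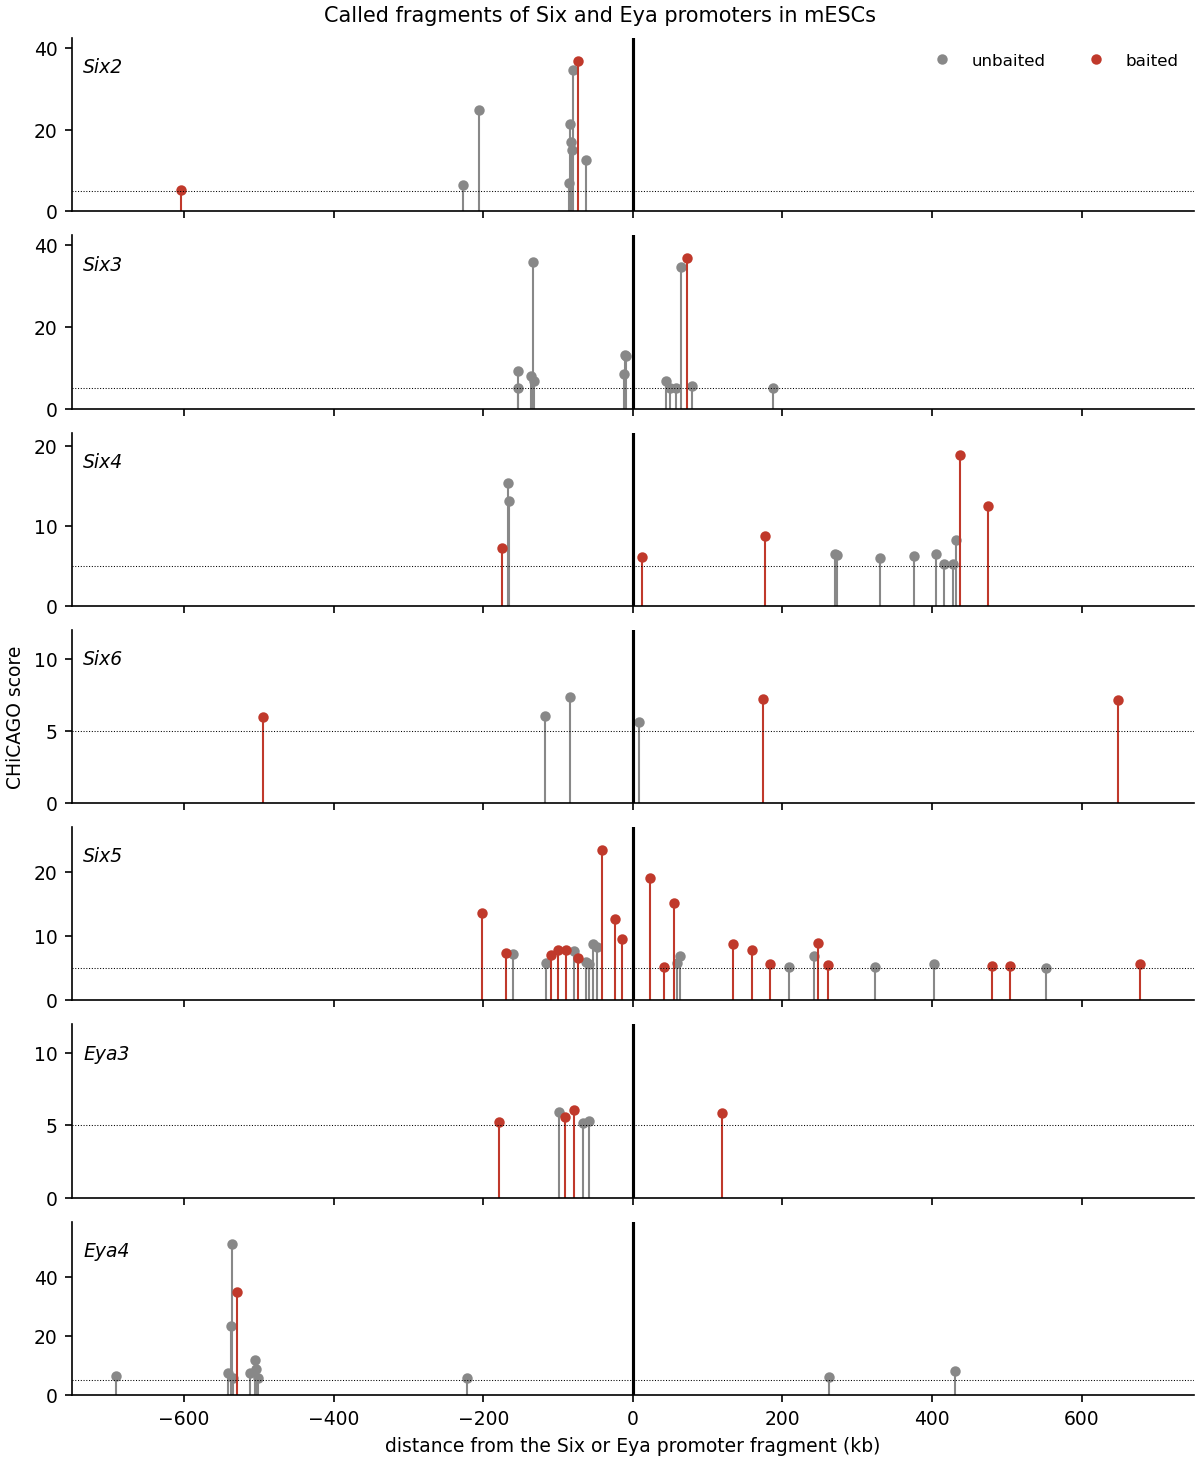
CHiCAGO score (vertical axes, each with its own range) of fragments called with a member within 750 kb in mESCs, against its signed distance in kb from the member's fragment at 0, along increasing mm9 coordinate. Red marks baited and grey unbaited fragments, a pair called from both ends is drawn at its higher score, and the dotted line is the score of 5. The Six2, Six3 and Eya4 calls bunch at a few distances. The 7 Six5 fragments beyond 2 Mb and some fragments of Six4 and Six6 are not drawn.

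Six2 and Six3 lie 72.77 kb apart on chromosome 17 and were called with each other from both ends. The Six3 fragment (chr17:86012060-86025337) and the Six2 fragment (chr17:86085226-86097711) were joined by 88 reads, with scores of 36.88 from Six2 and 27.07 from Six3. All 11 Six2 calls lay on the side of Six3. Of the 10 Six2 fragments, 7 fell between 62.12 and 85.6 kb away, in and beside Six3 and its antisense gene Six3os1. Six3 in turn had 6 fragments between 44.5 and 79.6 kb on the side of Six2. Among calls made from Six3, the best there was an exonic fragment of Six2 with 139 reads and a score of 34.79.

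The strongest contact of Six3 with an unbaited fragment pointed away from Six2. This intergenic fragment, chr17:85884249-85886192, lay 133 kb from Six3 with 58 reads and a score of 35.8. It was also called with Six2, 206 kb away, with 29 reads and a score of 24.8. Its richest 250 bases, printed above, held more CpG than 99.4% of listed unbaited fragments of like length. In all, 5 fragments were called with both Six2 and Six3, of which 2 were intergenic and 3 lay in Six3os1. The longest Six2 call reached the promoter fragment of Prepl, a peptidase-like gene, at 604 kb with 5 reads and a score of 5.25. The longest Six3 call spanned 187 kb, with 13 reads and a score of 5.15.

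**Figure D3:**
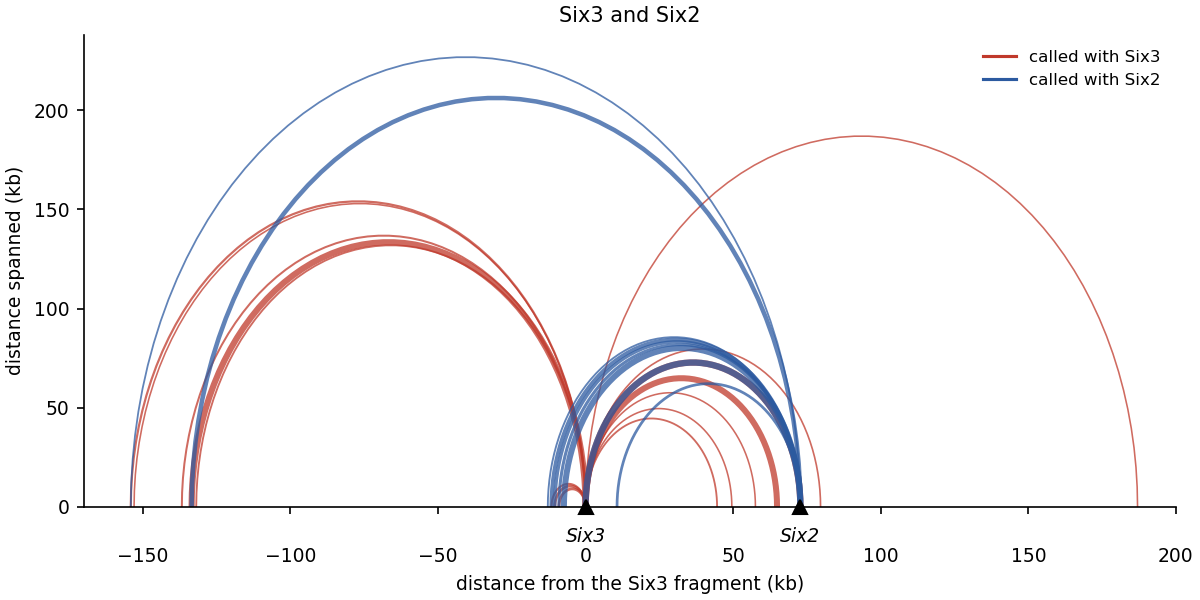
Calls around Six3 and Six2 in mESCs, by distance in kb from the Six3 fragment. Each arc joins a member to a called fragment, its height is the distance spanned, its width grows with the score and its colour gives the member, with the arc between both promoters overlaid. The arcs of Six2 and Six3 meet again at fragments near -133 kb.

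Six4 and Six6 lie on chromosome 12 and were called with each other from both ends. The pair spanned 174 kb on 12 reads, with scores of 7.22 from Six6 and 5.9 from Six4. Six4 had 3 fragments at Six6, the highest score, 15.45 on 18 reads, belonging to an exonic fragment of Six6 and not to its promoter. A neighbouring exonic fragment of Six6 (13.14 with Six4) was called with Six6 too, over 8.31 kb on 39 reads with a score of 5.61.

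On the side away from Six6, Six4 had 12 fragments up to 475 kb away. The partners there were Tmem30b (437 kb, 18 reads, score 18.87), Prkch (475 kb, 13 reads, 12.57), Trmt5 (176 kb, 16 reads, 8.74) and Mnat1 (12.3 kb, 47 reads, 6.12). Prkch encodes a protein kinase C, Trmt5 a tRNA methyltransferase and Mnat1 a subunit of the CDK-activating kinase. Prkch was also the longest call of Six6, at 649 kb with 7 reads and a score of 7.17, and Lrrc9 was its partner at 495 kb on the opposite side with a score of 5.96. Six6 had 4 baited fragments among its 8.

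Eya4 had the most remote contacts of the members under 1 Mb, with a median distance of 521 kb. Of its 13 fragments, 9 lay between 501 and 542 kb away, beside Tcf21, a transcription factor gene of kidney, heart and muscle precursors. The Tcf21 promoter was called with Eya4 from both ends over 530 kb on 27 reads, with scores of 35.01 and 22.75. The highest score, 51.19 on 30 reads, belonged to the unbaited fragment chr10:22533514-22535466 at 535 kb, 5.44 kb from the Tcf21 start. A neighbour of it scored 23.33, and the other fragments of the group scored 5.62 to 11.95. The longest call spanned 690 kb into an intron of Slc2a12, with 6 reads and a score of 6.53.

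Six5 differed in pattern from the other members. It lies on chromosome 7 beside Dmpk, the myotonic dystrophy kinase gene, and 23 of its 41 fragments were baited promoters. Of its 50 calls, 27 were made from Six5 and 23 from the partner. The best partners were Rsph6a (41.2 kb, 29 reads, score 23.5), Gm4969 (23.2 kb, 31 reads, 19.17), Snrpd2 (55.6 kb, 13 reads, 15.13), Pglyrp1 (202 kb, 9 reads, 13.56) and Dmwd (24.3 kb, 21 reads, 12.74). All 5 of these scores were given from the partner. Where Six5 called the same fragments in turn, its scores were 9.17 for Rsph6a, 5.88 for Gm4969 and 5.04 for Pglyrp1. Snrpd2 and Dmwd were not called from Six5.

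Only Six5 had calls over 1 Mb, and no member had a call to another chromosome. There were 8 such calls, or 6.06% of the member calls (95% Wilson interval 3.10 to 11.5%). Over all mESC calls the share was 3.94%, which also counts calls between chromosomes. The 8 member calls reached 7 fragments, all over 2 Mb away, on 4 or 5 reads each. The promoters among them included Prkd2, a protein kinase D gene (2256 kb, score 5.77), and Ptgir, the prostacyclin receptor gene (2189 kb, 5.74). The highest score, 8.06, was that of an unbaited fragment with a start of Hif3a at 2046 kb, and 3 more unbaited fragments lay in Strn4. The baits over 1 Mb away with the most similar called fragments were Calm3 (Jaccard index 0.127, 8 fragments shared) and Dact3 (0.0943, 5 shared), over the 41 fragments of Six5. Both lie in that same distant stretch of chromosome 7.

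Eya3 had low scores throughout, from 5.18 to 6.07 over 7 calls on 7 to 20 reads. Its partners were Ptafr, the platelet-activating factor receptor gene (78.4 kb, score 6.07), Smpdl3b (119 kb, 5.86), a fragment named for a U6 small nuclear RNA that also holds the Dnajc8 start (90.3 kb, 5.55) and Med18 (180 kb, 5.27), its longest call. None of these pairs was called from both ends.

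Calls that join baited fragments need care in counting, because the list counts a promoter pair from each end that calls it. Counted at either end, 56 of 132 member calls joined baited fragments, or 42.4% (34.3 to 51.0%), against 36.3% of all mESC calls. A call made from another bait onto a member joins baited fragments by construction. Among the 98 calls made from the member baits themselves, 22 reached a baited fragment, or 22.4% (15.3 to 31.7%), which is below the 36.3%. For the baits other than Six5 it was 13 of 71, or 18.3% (11.0 to 28.8%), and for Six5 9 of 27, or 33.3% (18.6 to 52.2%). With each pair counted once, 33.9% of member pairs and 31.1% of all pairs joined baited fragments. Of the 39 member pairs of baited fragments, 17 were called from both ends, or 43.6%, against 26.2% of all such pairs.

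Partners were also looked up in the same gene network. Of 20 genes of the network (Pax1 to Pax9, Six2 to Six6, Eya1 to Eya4, Dach1 and Dach2), 16 had a call in mESCs, and those missing were Eya1, Eya2, Dach1 and Dach2. The partners of members among them were Six2, Six3, Six4 and Six6, so no member was called with a Pax gene or with an Eya gene. No share of this list over all baited fragments was computed, and no member call left its own chromosome. Developmental regulators named 7 of 39 distinct baited partners, or 17.9% (8.98 to 32.7%), against 3.31% of baited fragments called by another bait. The 39 partners also include baits that only called a member, so the sets are built differently. Of the 7 developmental partners, 4 were members themselves. Without the member promoters there remained 3 of 35, or 8.57% (2.96 to 22.4%), among them Tcf21 and Foxa3, the latter chosen for mention after its value was seen (73.7 kb from Six5, score 6.55).

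With calls pooled over each family, other homeobox and paired-box families reached further in mESCs. The median cis distance was 157 kb for member calls (108.8 to 179.6 kb by order statistics) and 139 kb for all calls. It was 481 kb for Pax promoters, 564 kb for Nkx promoters and 645 kb for LIM homeobox promoters. Genes with many calls weigh most in these medians. By gene, the Pax medians ran from 217 to 3196 kb and those of the members from 72.8 to 521 kb, so single genes overlapped. Calls over 1 Mb or between chromosomes were made by 1 of 7 member baits, beside 6 of 8 Pax baits, 7 of 11 Nkx baits, 9 of 11 LIM homeobox baits and 8.5% of all baits. The difference was not tested, since neighbouring calls are not independent and the families were chosen with earlier results known.

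The unbaited fragments called with members were compared by CpG, which the rule did not use. For each, the 250 bases with the most CpG were taken and ranked among listed unbaited mESC fragments within 10% of its length. Of 69 fragments, 17 lay at or above the 90th percentile, or 24.6%, against 9.01% of all 35483 listed unbaited fragments. The share was higher at higher scores, among members as among all fragments. By the score with the member it was 7 of 10 at a score of at least 20, against 33.8% of all listed unbaited fragments whose best score was that high. It was 10 of 17 at a score of at least 10, against 17.6%, and 7 of 52 below 10, against 7.28%. Those 10 fragments of high score and high CpG were called with Six2 (3), Six4 (3), Six3 (2) and Eya4 (2). Those of Six2 lay in Six3os1, 1.59 to 5.81 kb from the nearest annotated Six3 start. That start is not the Six3 start used for the promoter window. The higher-scoring of Eya4 lay 5.44 kb from the Tcf21 start and the other 24.1 kb from it. The higher-scoring of Six3 lay 128 kb from the nearest protein-coding start, and the other, with an exon of Six2, lay 4.04 kb from the Six2 start. Ranking matched length and not distance from a start, and neighbouring fragments were counted separately.

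**Figure D4:**
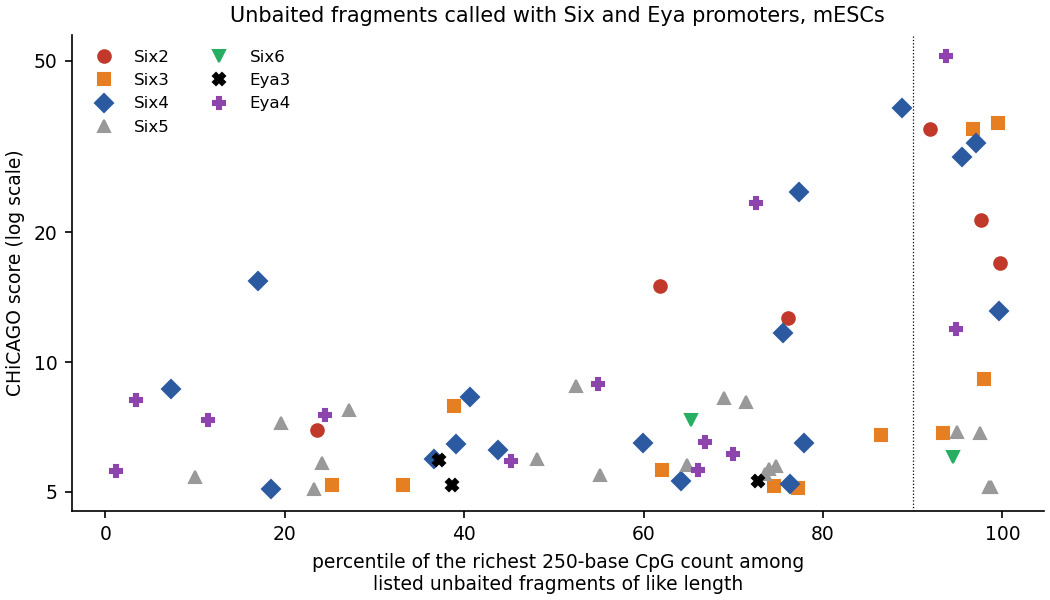
Percentile of the highest CpG count in 250 bases among listed unbaited fragments of like length (horizontal axis) against CHiCAGO score (vertical axis, log scale) for the 69 unbaited fragments called with members in mESCs. Each point is a fragment, drawn for the member with which it scored highest, and the dotted line is the 90th percentile. Of 10 fragments with a score of at least 20, 7 lie to its right.

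TCAGGTT, the MEF3 site, was searched on both strands of the 9 promoter windows of 250 bases. It matched in the Six6 window alone, beside 3.36% of all promoters. As whole fragments, the Eya4 bait had 78.4 CpG per kb, above 99.1% of baited fragments, and Six4 had 42.8, Six3 39.9, Six2 33.4, Six5 28.1, Eya3 18.6 and Six6 17.4, beside a median of 16.9.

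The Hi-C library is a pre-capture dataset in the study's terms, so it may share material with the captured libraries and is not independent support. It was read in pairs of 25-kb bins under 1 Mb and 1-Mb bins beyond. Of 124 member calls under 1 Mb, 38 lay within bin pairs of a false discovery rate (FDR) under 0.05, or 30.6% (23.2 to 39.2%), against 11.6% of all such mESC calls. The interval of the member share lay above the share of all calls at 50 to 100 kb (19 of 35 against 15.9%), at 100 to 200 kb (8 of 28 against 11.2%) and at 500 to 1000 kb (6 of 16 against 13.5%). Under 50 kb, 4 of 17 member calls and 13.2% of all calls could not be told apart at this depth, nor could 1 of 28 and 7.62% at 200 to 500 kb. By distinct fragment it was 8 of 10 for Six2, 12 of 15 for Six3, 5 of 13 for Eya4, 8 of 23 for Six4, 2 of 8 for Six6, 7 of 41 for Six5, all of them beyond 1 Mb, and 0 of 7 for Eya3. Many calls shared a bin pair, and the 38 calls fell into 10 of them. All 6 at 500 to 1000 kb were Eya4 calls in the same bin pair, that of Eya4 and Tcf21. The intervals treat calls as independent, which calls in a shared bin pair are not, so they are too narrow here.

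The bins of Six2 and Six3 were joined by 69 Hi-C reads where 9.46 were expected, a ratio of 7.30. Those of Eya4 and Tcf21 were joined by 20 reads against 3.18, a ratio of 6.30, with an FDR of 4.2e-05. Those of Six3 and its shared intergenic fragment had 41 reads against 5.20, a ratio of 7.89. Those of Six2 and the same fragment had 14 against 2.52, a ratio of 5.56, with an FDR of 0.0124. Those of Six4 and Six6 had 15 against 3.70, a ratio of 4.05, and did not pass, with an FDR of 0.300. All 8 Six5 calls over 1 Mb lay in 1 bin pair with 720 reads against 297.7, a ratio of 2.42, beside 57.2% of all mESC calls over 1 Mb in such pairs.

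In GM12878 there were 5 of 9 symbols with a call, beside 65.4% of protein-coding symbols. SIX6, EYA1, EYA2 and EYA4 had none. The fragment with the EYA1 start was listed under another transcript's name with 1 call, which the rule does not count. EYA3 had 30 calls, SIX4 had 15, SIX5 had 7, SIX2 had 4 and SIX3 had 2. The order thus differed from mESCs, where Eya3 had the fewest calls of the listed members and Six5 the most. Of the 58 calls, 7 scored at least 10, or 12.1%, against 16.3% of all GM12878 calls, and 0 scored at least 20, against 1.86%. None of the 58 lay over 1 Mb or between chromosomes, which allows a share of up to 5.17%, against 1.95% of all calls. So 0 of 5 member baits had such a call, against 3.77% of all baits.

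**Figure D5:**
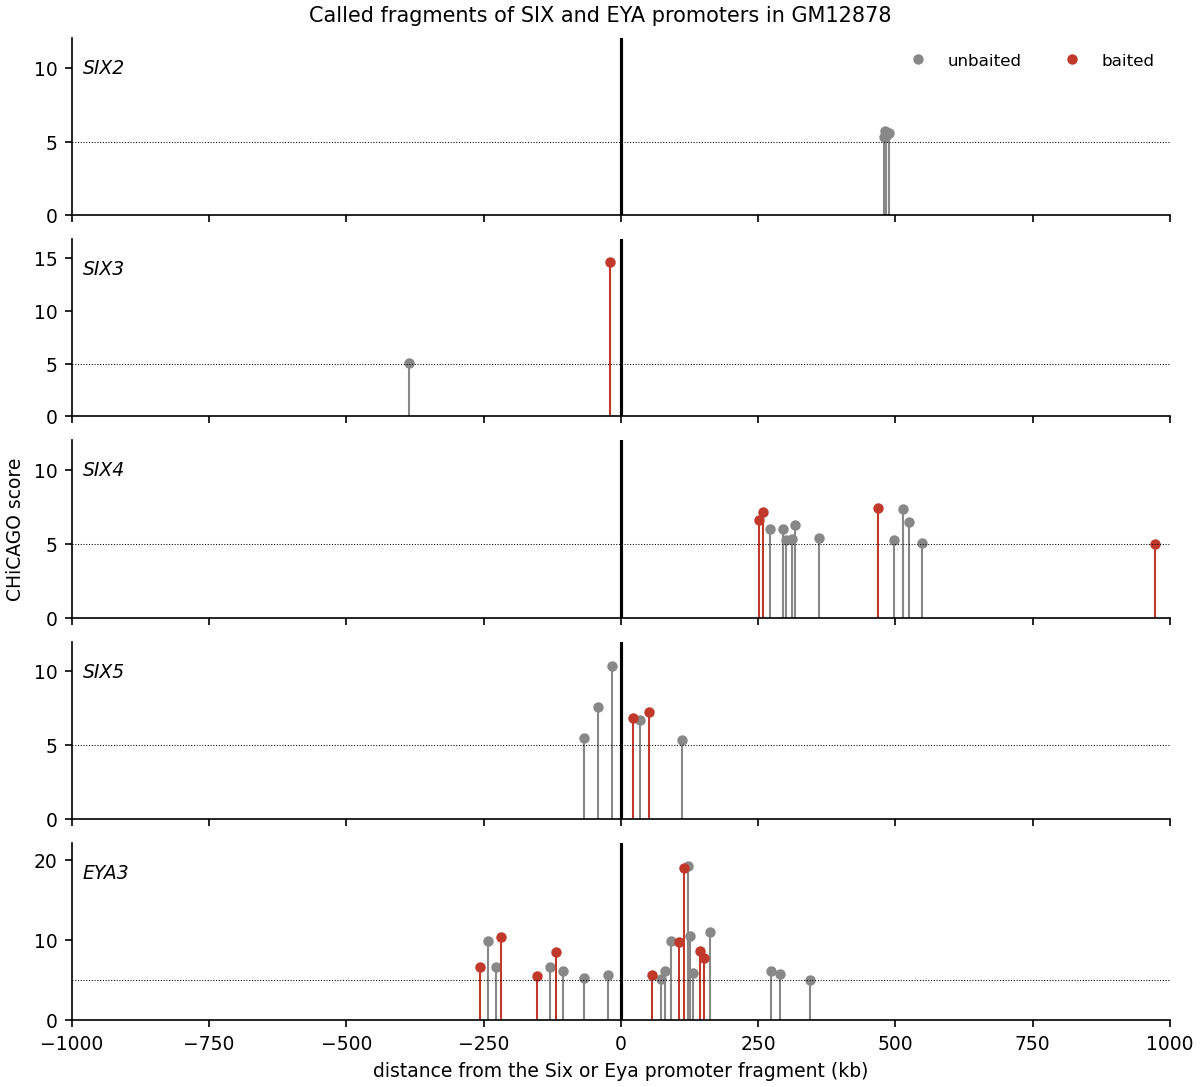
CHiCAGO score (vertical axes, each with its own range) of every fragment called with a SIX2, SIX3, SIX4, SIX5 or EYA3 promoter in GM12878, against its signed distance in kb from that promoter's fragment at 0, along increasing hg19 coordinate. Red marks baited and grey unbaited fragments, pairs called from both ends are drawn at the higher score, and the dotted line is the score of 5. SIX4 and SIX2 were called on the higher-coordinate side alone, and EYA3 has the highest score, 19.29.

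The neighbouring SIX2 and SIX3, and SIX4 and SIX6, promoters were not called with each other in GM12878. The SIX2 and SIX3 fragments lie 68.3 kb apart on hg19, and those of SIX4 and SIX6 211 kb. SIX2 had 4 calls 480 to 488 kb away in SRBD1, on the side away from SIX3, each on 8 reads with scores of 5.32 to 5.7. SIX3 was called with a baited fragment named RP11-89K21.1 at 19.1 kb (57 reads, 14.61) and with an exonic fragment of CAMKMT at 387 kb (5 reads, 5.1). The SIX3 fragment carries the name RP11-89K21.1 too, and the partner of that name held an exon of LINC01833 but no annotated start. All 15 SIX4 calls, over 14 fragments, lay on the side away from SIX6. They reached TRMT5 and SLC38A6 (259 kb, 7.13), PRKCH (468 kb, 7.4), RNU6-398P (252 kb, 6.6) and HIF1A (972 kb, 5.02), the longest.

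EYA3 had more distinct fragments in GM12878, 25, than 95.2% of baited fragments. Between 90.6 and 163 kb on the higher-coordinate side 9 fragments scored 5.9 to 19.29. The highest score belonged to an unbaited fragment with a DNAJC8 start at 122 kb, on 44 reads. The baited partners of highest score were AL353354.1 (115 kb, 19), THEMIS2 (218 kb, 10.42), PTAFR (105 kb, 9.77), DNAJC8 (143 kb, 8.66) and XKR8 (118 kb, 8.54). These scores were given from the partner. From EYA3 itself they were 9.09 for AL353354.1, 5.55 for THEMIS2, 7.31 for PTAFR and 7.33 for DNAJC8. XKR8 was not called from EYA3. The longest call spanned 345 kb into PHACTR4 with a score of 5.04. SIX5 had its highest score, 10.35, at an unbaited fragment 16.1 kb away on 63 reads, and its partners were the fragments of DMPK and DMWD (21.3 kb, 6.85) and of RSPH6A and SYMPK (51.4 kb, 7.23). Its longest call, 112 kb into FOXA3, scored 5.35.

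Some partners were listed in both cell types, and they are named for this after their values were seen. Each score is the highest from either end, so the calling end can differ between the cell types. Six4 was called with PRKCH (12.57 in mESCs, 7.4 in GM12878) and TRMT5 (8.74 and 7.13). From the partner in both cell types, PRKCH scored 9.56 and 7.4, and TRMT5 scored 5.46 and 7.13. Six5 was called with DMPK (9.65 and 6.85), DMWD (12.74 and 6.85) and RSPH6A (23.5 and 7.23), where DMPK and DMWD share a fragment in the human digest. Eya3 was called with PTAFR (6.07 and 9.77) and SMPDL3B (5.86 and 5.49). From Eya3 in both cell types, PTAFR scored 6.07 and 7.31. In mESCs and GM12878 the distance was 475 and 468 kb for PRKCH, 176 and 259 kb for TRMT5, 14.6 and 21.3 kb for DMPK, 24.3 and 21.3 kb for DMWD, 41.2 and 51.4 kb for RSPH6A, 78.4 and 105 kb for PTAFR and 119 and 154 kb for SMPDL3B. It was longer in GM12878 for 5 of the 7 partners. None of the contacts among Six2, Six3, Six4 and Six6 promoters, nor that of Eya4 with Tcf21, was listed in GM12878. Developmental regulators named 0 of 16 distinct baited partners there, which allows a share of up to 18.8%. The share was 2.43% of baited fragments called by another bait.

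In GM12878, 22 of 58 calls joined baited fragments, or 37.9%, against 29.4% of all calls. Among the 44 calls made from the member baits it was 8, or 18.2% (9.51 to 32.0%). Of the 16 pairs of baited fragments, 6 were called from both ends, or 37.5%, against 18.5% of all such pairs. The median cis distance was 158 kb, beside 174 kb over all calls. The EYA1 start fragment was captured, since its 1 call was made from it as a bait. The other members without a call, in either cell type, cannot be told from promoters that were not captured, as the list of captured baits was not used here.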

How the data were processed

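Promoter CHi-C of mESCs and GM12878 and Hi-C of mESCs were analysed. Read pairs were mapped by the authors with HiCUP to mm9 or hg19, and interactions were called with CHiCAGO on all replicates of a cell type together. The submitters' processing notes name Bowtie 1.1.0 and HOMER 4.7. The deposited CHiCAGO score rises as the distance-weighted p-value of a call falls, and values from 5 upward were listed. The read number beside it was treated as a score, since the authors give a weighted, rounded mean and not a raw read count. For Hi-C, the deposited count of reads per bin pair was used with the expected reads, a signal computed by HOMER, and the deposited FDR, an adjusted p-value. A further 10 columns of the Hi-C lists were not used.

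Names were split at semicolons, bars and commas, and the transcript number behind a symbol was removed. Every listed fragment (52640 for mESCs, 56775 for GM12878) matched a HindIII fragment of the reference. Annotations were GENCODE on mm9 and hg19, and distances run between fragment midpoints. Likeness is the Jaccard index of called fragments between baits with at least 5 of them. A call lay within a Hi-C bin pair if both fragment midpoints did. Shares have 95% Wilson intervals, and a count of 0 allows 3 counts. No test between groups was made, since each cell type has 1 set of calls. The depth is the number of calls. Python 3.11.15, pandas 2.3.3 and scipy 1.17.1 were used, and the scripts were tested on simulated calls. Genes were named as members, as partners over 1 Mb away, as the up to 5 baited partners of highest score per member, as partners on the network list, or at the highest and longest call of a member, other exceptions being stated, and some contacts of Six4, Six5 and Six6 are not reported here. The members and lists were chosen with earlier results of these data known. Alternatives were a score of at least 10, at least 10 reads, each pair once, the browser list, members as bait only, and other Hi-C thresholds.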

Additional observations from a re-analysis of the deposited data

How the results depend on the processing

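Of 40 recomputed values, 25 stayed within the interval of the reported value, or within 1.5 times it for a count. At a score of at least 10 there were 35 member calls in mESCs and 7 in GM12878, the median distance was 80.1 kb, no call lay over 1 Mb (0), developmental partners made up 36.4% and the 25-kb Hi-C share was 68.6%. At 10 or more reads there were 85 calls in mESCs, a median of 80.1 kb, 0 calls over 1 Mb and a Hi-C share of 41.2%. So each call over 1 Mb has fewer than 10 reads and a score under 10. The share of calls that join baited fragments was 33.9% with each pair once, 33.9% in the browser list and 22.4% with members as bait only, where calls over 1 Mb numbered 5. With every listed Hi-C bin pair the 25-kb share was 51.6%. No Hi-C share over 1 Mb could be given at a score of at least 10 or at 10 reads, as no call was left. No replicate could be left out. No paired analysis was possible because the calls pool the replicates.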
